A study of Ptychodera flava with 31 samples.

Results

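The 200 transcript models of the acorn worm Ptychodera flava that stayed most abundant across development are described here. For each of the 35854 models in the deposited tables the lowest level over all 31 libraries was taken, in TPM (a level scaled by model length and to the same total in every library), and the 200 members were chosen by this value as the models in which it was highest. Ptychodera flava is a hemichordate, a marine deuterostome that develops through a swimming larva called the tornaria and then transforms into a burrowing worm. RNA was taken from whole wild-type animals at 16 stages. The stages were unfertilized eggs (1 library), 16-32 cell embryos (2 libraries), early and late blastulae (2 each), early gastrulae (3), mid gastrulae in which mesoderm had not yet migrated (3), mid gastrulae in which it had (2), and late gastrulae (2). Then came the tornaria 72 hours after fertilization (hpf) and the named larval stages Heider, Meschnikoff, Krohn, Spengel and, last, Agassiz (2 each), transforming larvae (1) and an adult (1). Libraries of 1 stage are labelled as biological replicates without naming spawnings or cultures, and p-values therefore measure only the spread between these samples, which may be technical. In whole animals, fewer cells of a type and less of an RNA per cell cannot be told apart.

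Transcripts that are abundant throughout an animal's life usually include those of genes that every cell uses. In animals in general such genes encode ribosomal proteins, translation elongation factors, cytoskeletal actins and tubulins, histones of the replacement type and enzymes of energy metabolism. Eggs are loaded with maternal RNA, the embryo takes over transcription during cleavage and blastula, and cell division slows as tissues differentiate. Which of these roles the 200 models have is not given in the files: 0 of the 35854 identifiers matched any of the 38920 entries of the RefSeq gene table, so the models are named by their identifiers and no sequence is shown. Libraries held between 11539946 and 17288661 estimated counts. The lowest estimated count of a member in any library ranged from 58 to 18109, with a median of 732, and all 200 passed the filter on low counts.

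The levels that chose the members spanned a wide range. The lowest TPM of a member ranged from 108 to 4244 with a median of 184, and it was above 1000 in 4 members and above 200 in 89. The last members inside, TCONS_00031074 and TCONS_00029725, had lowest TPM of 107.8 and 107.7. The models just outside, TCONS_00053459 and TCONS_00035289, had 107.7 and 107.5. TCONS_00053459 reached 2177 TPM elsewhere and was kept out by its level in 16-32 cell replicate 2, so that the boundary separates models by a single library.

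TCONS_00013004, a model of 411 bases, had the highest floor of all. Its TPM was 15456 in the egg, 21187 and 23463 at the 16-32 cell stage, 27842 and 27616 in the early blastula, and 23607 and 23331 in the late blastula. In the 10 gastrula libraries it ranged from 10000 to 21532 (median 14470), in the 12 larval libraries from 4560 to 8973 (median 5043), and the transforming larva had 5002 and the adult 4244. Every larval library lay below every gastrula library. TCONS_00022743, of 306 bases, was second with a lowest TPM of 1202 in the egg, and 2844 to 4758 in the gastrula libraries. TCONS_00037485, at rank 5, had the opposite course to the first and lay between 912 and 1204 TPM in the egg, 16-32 cell and blastula libraries and between 4252 and 7079 in the larval ones. TCONS_00052266, at rank 3, is described with the egg below. TCONS_00030795, at rank 4, ranged from 1095 to 4678 TPM in the gastrula and from 1551 to 6686 in larvae, so that these groups overlapped.

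Together the members held 15.1% to 26.6% of TPM, with the larger shares in blastulae and gastrulae. The share was 23.5% in the egg library, 17.9 ± 0.336% at the 16-32 cell stage (SD, n = 2), 25.1 ± 1.27% in the blastula libraries (SD, n = 4) and 24.0 ± 2.23% in the gastrula libraries (SD, n = 10). It was 16.1 ± 0.888% in the larval libraries (SD, n = 12), while the transforming larva had 15.1% and the adult 16.0%. All 12 larval libraries, at 15.2% to 18.0%, lay below every gastrula library, at 20.3% to 26.6%. The decline ran through the late gastrula at 20.3 ± 0.0509% (SD, n = 2), the 72 hpf larvae at 17.8 ± 0.305% (SD, n = 2) and Heider at 15.6 ± 0.184% (SD, n = 2), after which the stage means stayed between 15.1% and 16.3%. No test was made, because TPM in all libraries chose the members. As a share of estimated counts, which are not scaled by length, they held 6.26% to 13.97% of a library.

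**Figure D1:**
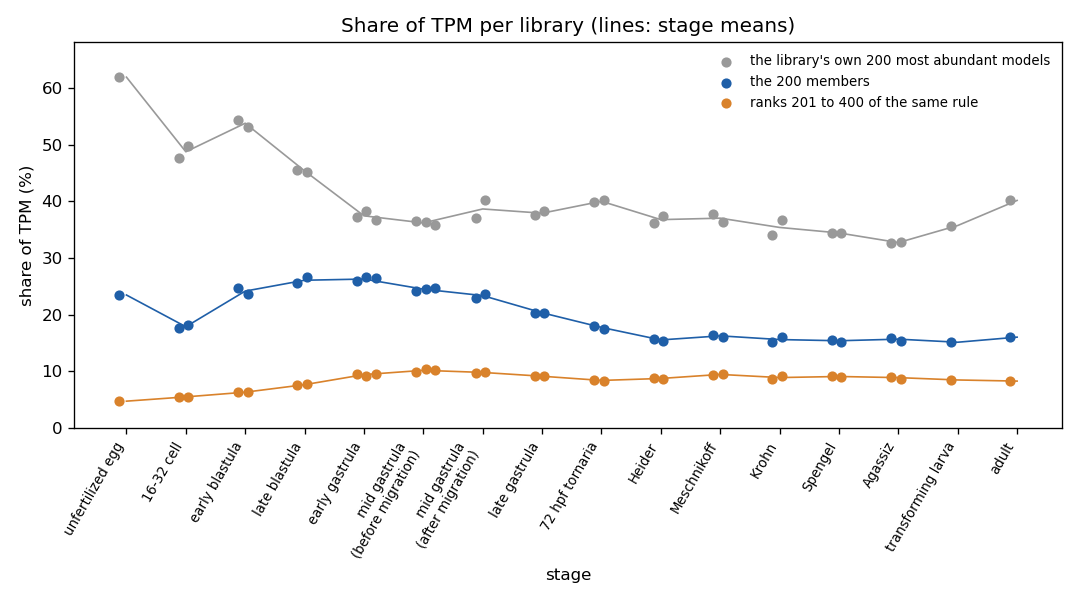
Share of TPM (%, y axis) per library at the 16 stages (x axis): points are libraries, lines join stage means, blue is the 200 members, orange the next 200 models by the same rule and grey each library's own 200 most abundant models. The blue points lie at 20.3% to 26.6% in the gastrula libraries and at 15.2% to 18.0% in the larval libraries.

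In most libraries the most abundant transcripts were mainly other models, the early blastula being the exception. Of the 200 models highest in a library, between 43 (the adult) and 109 (an early blastula library) were members, and in late blastula replicate 1 the number was 100. It was 88.7 ± 7.90 in the gastrula libraries (SD, n = 10) and 58.8 ± 6.88 in the larval libraries (SD, n = 12). Each library's own top 200 held 61.9% of TPM in the egg and 36.0 ± 2.49% in the larval libraries (SD, n = 12). The next 200 models by the rule held 4.76% of TPM in the egg, 9.69 ± 0.444% in the gastrula (SD, n = 10) and 8.93 ± 0.363% in larvae (SD, n = 12).

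Most of the drop in share from the egg to the 16-32 cell stage lay in TCONS_00052265 and TCONS_00052266, the members highest in the egg and picked here for that. Together they held 6.72% of egg TPM and 1.27% and 1.05% in the 16-32 cell libraries. The other members held 16.8% in the egg and 16.4% and 17.1% at the 16-32 cell stage. TCONS_00052265 (2159 bases) held the largest share of any member in a single library, at 35092 TPM in the egg against 5542 and 5031 TPM at the 16-32 cell stage. TCONS_00052266 (525 bases) had 32069 TPM in the egg and 7170 and 5431 TPM at the 16-32 cell stage. Both had fractional counts, which mark reads shared with other models, so that their separate levels are uncertain. Both also varied between replicates, in the same direction: TCONS_00052265 had 5062 and 13866 TPM in the late blastula and TCONS_00052266 had 5869 and 12215 TPM there.

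The members were short models. Their length ranged from 162 to 6791 bases with a median of 496.5 and quartiles of 356 and 884, against a median of 1620 over all models. A length of up to 500 bases was found in 101 members (50.5%) and in 9.13% of all models, and 166 members (83.0%) were shorter than the median of all models. TPM divides by length, so that the rule itself favours short models and the difference is a description. Chosen in the same way on CPM (estimated counts scaled to a fixed library total, without length), 200 models had a median length of 3935 bases and shared 54 with the members (27.0% of each list).

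**Figure D2:**
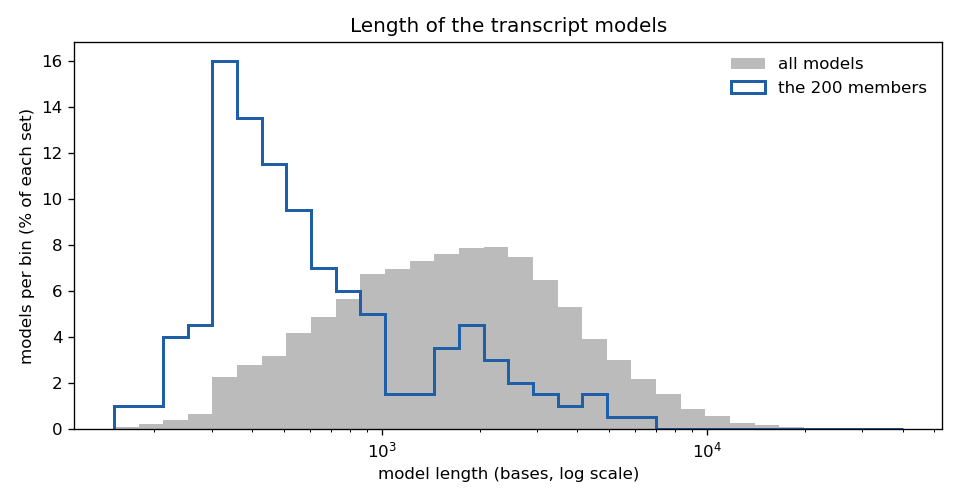
Length of transcript models (bases, log scale, x axis) as the percentage of each set per bin (y axis), for all 35854 models (grey) and the 200 members (blue line). The members have a median of 496.5 bases and all models one of 1620 bases.

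The shortest members rest on few counts and on very small effective lengths. TCONS_00044045 (162 bases) and TCONS_00038722 (164 bases) are shorter than the mean fragment, which was 198.8 to 221 bases long, and their effective lengths were 21.4 to 27.4 and 22.2 to 28.3 bases. Their lowest estimated counts were 84 and 58. TCONS_00044045 varied between Heider replicates, at 4916 and 1100 TPM. In a median library the 101 members of up to 500 bases held 11.1% of TPM but 1.40% of estimated counts. The longest members, TCONS_00020895 (6791 bases) and TCONS_00050927 (5621 bases), had lowest estimated counts of 8065 and 9451. The 43 members over 1000 bases held 3.41% of TPM and 5.12% of counts in a median library.

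Most members had a length divisible by 3. This was found in 157 of 200 (78.5%) and in 158 of the next 200 models by the rule (79.0%), against 60% of all models and 33.3% if lengths were random. It was found in 97 of the 101 members of up to 500 bases (96.0%), against 82.3% of all models of that length, and in 60 of the 99 longer members. Whether a model holds coding sequence alone or also untranslated ends is not given in the sources used here, so that a length may or may not include them. Fractional counts, in at least 1 library and by more than 0.05 of a count, were found in 26 members (13%), in 31 of the next 200 models by the rule (15.5%) and in 50.2% of all models.

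Being abundant at every stage did not mean being constant. The ratio of a member's highest to its lowest TPM over the 31 libraries ranged from 1.69 to 46.1 with a median of 5.76, was under 4 in 47 members and over 10 in 53. For the next 200 models by the rule the median ratio was 6.91, and 33.5% were over 10. For the 10349 models with at least 1 TPM in every library the median ratio was 8.67, and 43.8% were over 10. The lowest TPM divides this ratio and also chose the members, so the rule itself favours small ratios and these differences are a description. The steadiest member was TCONS_00011707 (408 bases), with 365 TPM in the egg, 231 to 355 in the gastrula libraries, 216 to 346 in the larval libraries, and single values of 227 (transforming larva) and 264 (adult). TCONS_00054585 and TCONS_00004768 followed, with ratios of 2.06 each, between 410 and 845 TPM and between 161 and 332 TPM. None of the 3 was called at any transition tested below. They were picked by their small ratios, which left little room for a 2-fold change, so this is no separate sign of steadiness.

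The most variable members had opposite courses. TCONS_00030567 (387 bases), with a ratio of 46.1, had 29211 TPM in the egg, 12601 to 21830 TPM in the gastrula libraries (median 16897), 1192 to 10222 in the larval libraries (median 2083) and 634 in the adult. TCONS_00025700 (516 bases), with a ratio of 43.7, had 960 TPM in the egg, 2636 to 5093 TPM in the gastrula libraries, 3796 to 10080 in the larval libraries, 3057 in the transforming larva and as much as 27528 in the adult. For all 200 members the stages differed more than replicates did: the SD of log2(CPM + 1) between stage means had a median of 0.77, and the SD within stages one of 0.17. The same held for 99.4% of the 10349 models with at least 1 TPM in every library, where the medians were 0.80 and 0.20.

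**Figure D3:**
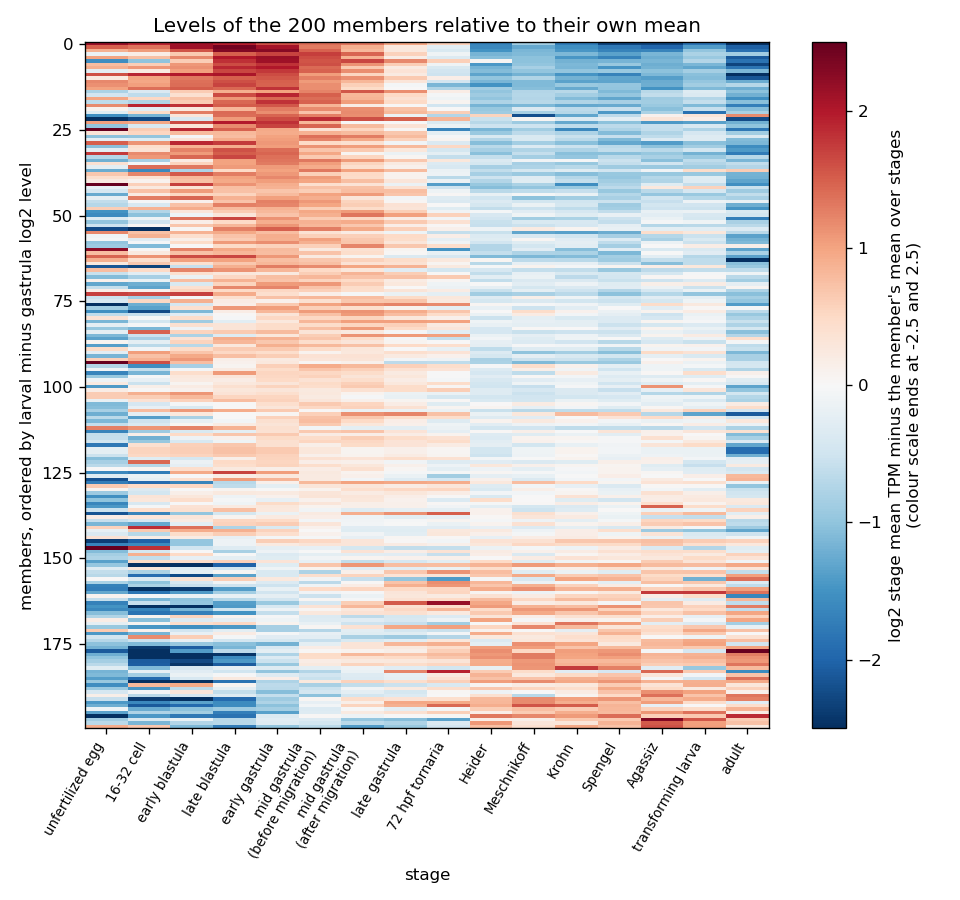
Stage mean TPM of each member on the log2 scale, minus the member's own mean over the 16 stages (colour, red above and blue below, with the colours limited at both ends of the scale), with stages on the x axis and the 200 members on the y axis in order of their larval minus gastrula level. Of the 200, 141 lie lower in larvae than in the gastrula, and the last rows show the opposite course.

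Peaks were spread over development, and the periods differ in how many stages they hold. By stage mean TPM, 74 members (37.0%) peaked in 1 of the 4 gastrula stages, 46 (23.0%) in 1 of the 2 blastula stages and 40 (20%) in 1 of the 6 larval stages, against 21.8%, 10.97% and 26.4% of the 10349 models with at least 1 TPM in every library. Of the others, 14 (7.0%) peaked in the adult, against 5.93% of those models, and 11 (5.5%) in the egg, against 6.91%. At the 16-32 cell stage 8 (4.0%) peaked, against 24.1%, and in the transforming larva 7 (3.5%), against 3.87%. The lowest stage mean was that of the adult in 60 members, the egg in 50, the 16-32 cell stage in 37 and a larval stage in 32, or 30%, 25%, 18.5% and 16.0%, against 20.2%, 24.8%, 12.4% and 12.9% of those models. The lowest values also chose the members, and the adult, egg and transforming larva have 1 library each.

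Changes between stages were tested over all 30661 models that passed the filter, with edgeR's quasi-likelihood test on counts scaled by TMM (trimmed mean of M-values, which assumes that most models do not change). To be called, a model needed a change of at least 2-fold and a p of less than 0.05 after Benjamini-Hochberg adjustment. These are the libraries whose lowest values chose the members, so the counts describe the members and do not set them apart. Over the 14 transitions from egg to transforming larva, 133 members (66.5%) were called at least once, against 63.9% of all models tested. Of the others, 67 were called in none, against 36.1% of all models, and 89 members (44.5%) were called in 1 transition, against 30.2% of all models. A further 44 (22%) were called in 2 or 3, against 33.7% of all models called in 2 or more, where the most was 10. Calls were concentrated in 4 transitions, and the other 10 had 15 or fewer called members each. From egg to 16-32 cell 26.5% of members were called against 12.3% of all models, and from 72 hpf tornaria to Heider 25.5% against 14.8%. Other abundant models shared this: of the next 200 by the rule, 17 rose and 42 fell at the former step. At the latter 2 of them rose and 39 fell. All models are a reference with many low levels, and their median TPM in the egg, tested or not, was 0.16. Members were called less often than all models from 16-32 cell to early blastula (15.5% against 31.1%) and from Spengel to Agassiz (9.5% against 16.5%). Within the blastula, from early to late, 15 members were called where 12.8% of all models were, 5 from late blastula to early gastrula (8.85%) and 5 from early to mid gastrula (9.38%). From there to the late gastrula 1 member was called at each of the 2 steps (2.94% and 1.54% of all models), and 2 on to the 72 hpf tornaria (3.89%). Between Heider and Spengel 3, 1 and 0 members were called at the 3 steps (3.73%, 1.48% and 0.372%), and at the last of these DESeq2 called 0 as well and 66 members (33%) had an unadjusted p under 0.05 in edgeR's test, against 12.02% of all models.

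**Figure D4:**
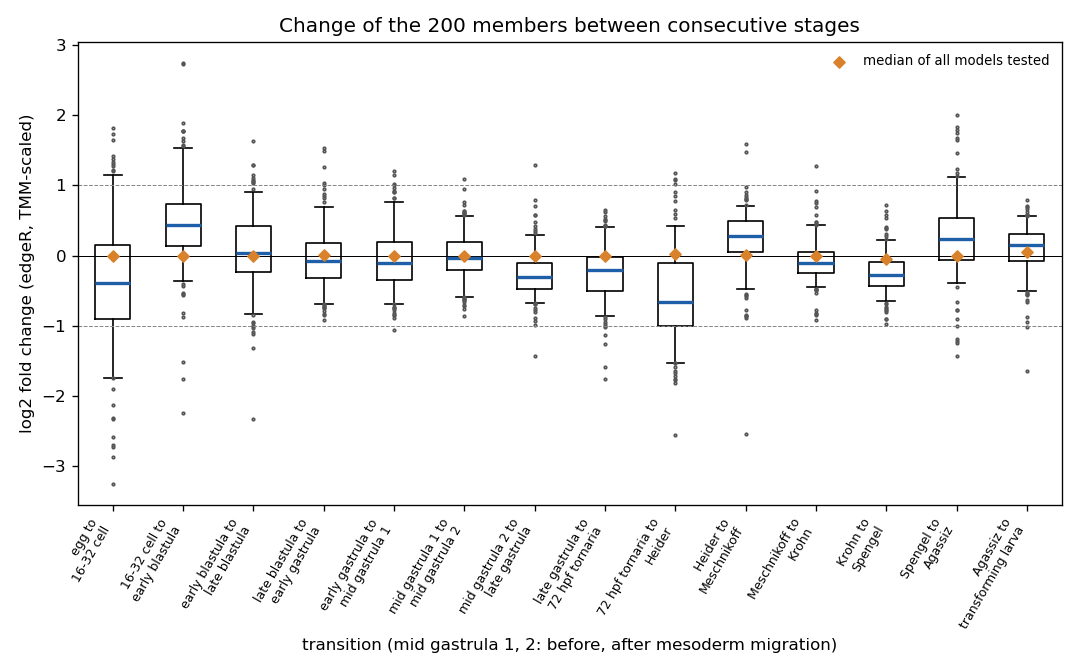
Log2 fold change of the 200 members (edgeR, TMM-scaled counts, y axis) at the 14 transitions between consecutive stages (x axis): boxes span the quartiles with the median in blue, whiskers the 5th to 95th percentile, dots the members beyond, orange diamonds the median of all models tested and dashed lines a 2-fold change. The member medians run from -0.66 (72 hpf tornaria to Heider) to 0.44 (16-32 cell to early blastula).

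From the egg to the 16-32 cell stage 39 members fell and 14 rose, where 7.34% of all models fell and 4.94% rose. Of the next 200 models by the rule 42 fell and 17 rose. TCONS_00052265 fell from 101402 CPM in the egg library to 10734 and 10545 CPM (edgeR log2 fold change -3.25 ± 0.72 SE, adjusted p = 0.00311). TCONS_00052266 fell from 15030 to 2248 and 1846 CPM (edgeR log2 fold change -2.88 ± 0.71 SE, adjusted p = 0.00674). TCONS_00030617 rose from 28.6 to 95.3 and 106.7 CPM (edgeR log2 fold change 1.82 ± 0.25 SE, adjusted p = 3.21e-05), and TCONS_00012594 rose from 37.8 to 128 and 123 CPM (edgeR log2 fold change 1.74 ± 0.17 SE, adjusted p = 3.87e-07). The balance of rises and falls depended on the scaling: with library totals alone 22 rose and 17 fell, and the median difference of the members was -0.39 on TMM-scaled counts but 0.13 in log2 TPM. The egg has a single library.

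In the early blastula the members had moved mostly up since the 16-32 cell stage. Of the 200, 28 rose and 3 fell (15.5% called), where 17.9% of all models rose and 13.2% fell (31.1% called). Called rises were thus no more frequent than in all models, and called falls were rarer. Of the next 200 models by the rule 32 rose and 10 fell. The log2 fold change was above 0 in 166 members, with a median of 0.44 in the members and 0.0 in all models tested. The share above 0 over all models was not counted. Their median TPM at the 16-32 cell stage, tested or not, was 0.13 in both libraries, so they are a weak reference for abundant models. TCONS_00028491 (357 bases) had 24.6 and 25.2 CPM at the 16-32 cell stage and 154 and 179 CPM in the early blastula (edgeR log2 fold change 2.74 ± 0.14 SE, adjusted p = 1.18e-11). TCONS_00009195 (1692 bases) had 215 and 203 CPM against 1266 and 1500 CPM (edgeR log2 fold change 2.73 ± 0.20 SE, adjusted p = 9.75e-10). In TPM the latter went on to 1905 and 2177 in the late blastula and 2250 to 2599 in the early gastrula. The 3 that fell were TCONS_00013378, from 116 and 124 to 25.7 and 24.9 CPM (edgeR log2 fold change -2.25 ± 0.25 SE, adjusted p = 3.62e-07), TCONS_00053574 (-1.76) and TCONS_00012594 (-1.51), the last of which had risen in the step before.

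From blastula to gastrula rises and falls were nearer to balance. Comparing the 4 gastrula stages with the 2 blastula stages, each stage weighted equally, 21 members rose and 28 fell, where 19.1% of all models rose and 10.6% fell. TCONS_00055161 (315 bases) had 22.5 to 52.8 CPM in the 4 blastula libraries (median 34.2) and 127 to 429 CPM in the 10 gastrula libraries (median 264) (edgeR log2 fold change 2.90 ± 0.13 SE, adjusted p = 6.16e-13). In TPM it then stayed between 2676 and 3518 in all larval libraries. TCONS_00042557 (565 bases) had 41.7 to 63.6 CPM against 152 to 622 CPM (edgeR log2 fold change 2.77 ± 0.11 SE, adjusted p = 1.80e-13). TCONS_00014764 (222 bases) fell from 217 to 248 CPM in the blastula to 40.9 to 157 CPM in the gastrula (edgeR log2 fold change -1.70 ± 0.12 SE, adjusted p = 5.26e-10), and TCONS_00040867 fell from 169 to 229 CPM to 38.4 to 115 CPM (edgeR log2 fold change -1.66 ± 0.14 SE, adjusted p = 6.66e-09). With library totals alone 25 rose and 16 fell, so that the balance turns with the scaling.

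From gastrula to larva many members fell. Comparing the 6 larval stages with the 4 gastrula stages in the same way, 91 members fell and 1 rose, where 18.1% of all models fell and 29.8% rose. Of the next 200 models by the rule 86 fell and 7 rose, so the fall was not particular to the members. The median log2 fold change was -0.90 in the members and 0.38 over all models tested. With DESeq2 size factors these medians were -0.63 and 0.63, and 67 members fell and 3 rose. In log2 TPM the median difference was -0.57. TCONS_00030567 had 1817 to 3416 CPM in the gastrula libraries (median 2651) and 132 to 1373 CPM in the larval libraries (median 233) (edgeR log2 fold change -3.05 ± 0.12 SE, adjusted p = 1.83e-14). TCONS_00005190 (372 bases) had 129 to 571 CPM (median 277) against 19.8 to 95.9 CPM (median 32.3) (edgeR log2 fold change -2.87 ± 0.09 SE, adjusted p = 1.41e-15). The member that rose, TCONS_00053574 (1906 bases), had 174 to 393 CPM against 363 to 1937 CPM, so that the groups overlapped (edgeR log2 fold change 1.32 ± 0.19 SE, adjusted p = 3.06e-06). Of the 101 members of up to 500 bases 48 fell, and of the 99 longer ones 43 fell.

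By the number of members called, the largest single step of this decline was from the 72 hpf tornaria to Heider. There 49 members fell and 2 rose, against 7.05% and 7.74% of all models. Of the next 200 models by the rule 39 fell and 2 rose. TCONS_00030567 fell from 1373 and 1365 to 281 and 185 CPM (edgeR log2 fold change -2.56 ± 0.28 SE, adjusted p = 1.13e-05). TCONS_00030382 (399 bases) fell from 81.0 and 119 to 22.7 and 34.0 CPM (edgeR log2 fold change -1.82 ± 0.35 SE, adjusted p = 0.00114). The members that rose were TCONS_00011649, from 25.04 and 21.6 to 42.2 and 63.3 CPM, and TCONS_00032888. The latter went from 508 and 559 to 620 and 1543 CPM (edgeR log2 fold change 1.02 ± 0.30 SE, adjusted p = 0.0188). Its rise thus lay mainly in Heider replicate 2. With the 4 libraries compared fitted alone 25 members fell and none rose, and with library totals 25 fell and 4 rose.

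Between early and late larvae few members changed by 2-fold. From early larvae (72 hpf tornaria and Heider) to late larvae (Spengel and Agassiz) 7 members fell and 2 rose, where 11.7% of all models fell and 19.1% rose. With DESeq2 size factors 3 fell and 3 rose, and without Agassiz replicate 1 the numbers were 12 and 3, without Spengel replicate 1 they were 12 and 2. TCONS_00011649 (459 bases) had 25.04 and 21.6 CPM in the 72 hpf tornaria, 42.2 and 63.3 in Heider, 66.7 and 74.2 in Spengel and 210 and 278 in Agassiz (edgeR log2 fold change 1.90 ± 0.18 SE, adjusted p = 8.83e-08). TCONS_00032888 (2030 bases) had 508 to 1543 CPM in early and 1705 to 2088 CPM in late larvae (edgeR log2 fold change 1.26 ± 0.21 SE, adjusted p = 6.89e-05). TCONS_00030567 fell in this contrast too (edgeR log2 fold change -1.95 ± 0.20 SE, adjusted p = 1.77e-07), which includes its fall from the 72 hpf tornaria to Heider: it had 281 and 185 CPM in Heider, 376 and 538 CPM in Meschnikoff and 132 to 157 CPM in Spengel and Agassiz. TCONS_00015012 (321 bases) fell from 29.3 to 65.6 CPM in early larvae to 11.8 to 20.1 CPM in late larvae (edgeR log2 fold change -1.65 ± 0.21 SE, adjusted p = 3.37e-06).

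The step from Spengel to Agassiz, the last larval stage sampled, held most of the calls in older larvae, in members and all models alike. There 14 members rose and 5 fell, 9.5% in all, where 8.1% of all models rose and 8.43% fell, 16.5% in all. With library totals alone 8 rose and 5 fell. TCONS_00020895, the longest member, rose from 822 and 993 to 4071 and 3188 CPM (edgeR log2 fold change 2.00 ± 0.23 SE, adjusted p = 3.33e-06). It had been high earlier too, and its TPM was 1284 and 1230 in the 72 hpf tornaria, 218 and 280 in Spengel and 1033 and 773 in Agassiz. TCONS_00003612 (4248 bases) rose from 614 and 555 to 2095 and 2075 CPM (edgeR log2 fold change 1.83 ± 0.19 SE, adjusted p = 1.40e-06). TCONS_00011333 fell from 338 and 208 to 130 and 73.5 CPM (edgeR log2 fold change -1.42 ± 0.27 SE, adjusted p = 0.000691), and TCONS_00029792 from 227 and 209 to 90.2 and 94.3 CPM (edgeR log2 fold change -1.24 ± 0.22 SE, adjusted p = 0.000482).

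Few members changed from Agassiz to the transforming larva, for which there is 1 library. None rose and 2 fell, where 0.995% of all models rose and 1.37% fell, and 3 members (1.5%) had an edgeR adjusted p under 0.05 at any fold change, against 2.70% of all models. DESeq2 also called none higher and 2 lower, and at an unadjusted p under 0.05 21 members (10.5%) were higher and 7 (3.5%) lower in edgeR's test, against 8.04% and 6.44% of all models. TCONS_00032888 fell from 1721 and 1705 to 549 CPM (edgeR log2 fold change -1.64 ± 0.39 SE, adjusted p = 0.0251). Without Agassiz replicate 1 this call no longer passed (edgeR adjusted p = 0.0907), nor without Agassiz replicate 2 (edgeR adjusted p = 0.0605). TCONS_00034272 (372 bases) fell from 132 and 133 to 65.5 CPM (edgeR log2 fold change -1.02 ± 0.21 SE, adjusted p = 0.00975). With the replicate number as a block its log2 fold change was -0.97, under the fold threshold.

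The adult and the transforming larva have 1 library each, so that their difference has no replicate check and no test. On log2(CPM + 1), 27 members were at least 2-fold lower and 8 at least 2-fold higher in the adult, against 15.1% and 17.1% of all models tested. The furthest apart, chosen after their values were seen, were TCONS_00025700 with 5912 CPM in the adult and 635 CPM in the transforming larva, and TCONS_00052761 with 65.8 and 341 CPM. TCONS_00020895 stood at 492 and 2298 CPM.

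**Figure D5:**
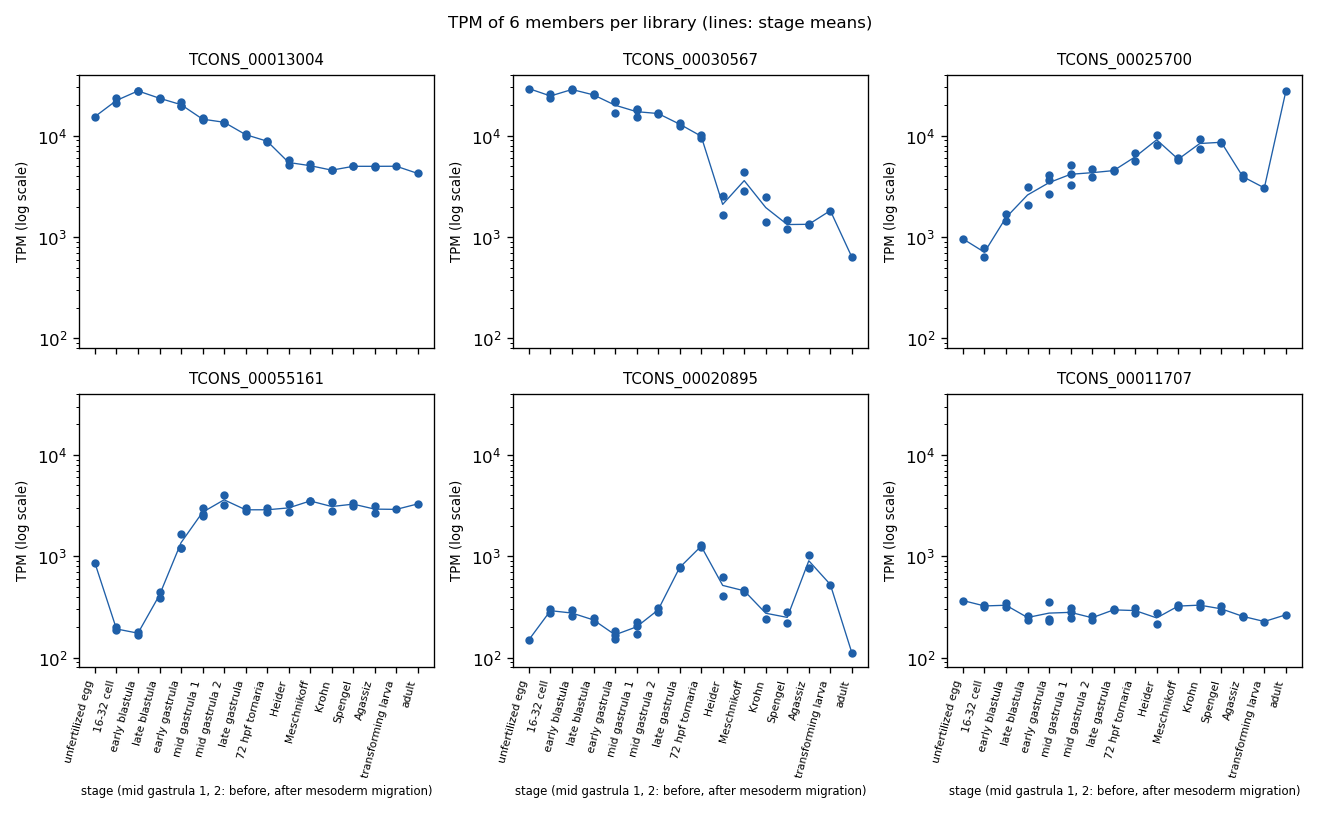
TPM (log scale, y axis) of 6 members in every library at the 16 stages (x axis), with points for libraries and lines through stage means. TCONS_00013004 and TCONS_00030567 are lower in every larval library than in every gastrula library, TCONS_00025700 is highest in the adult at 27528 TPM, TCONS_00055161 reaches 2676 to 3518 TPM in the larvae, TCONS_00020895 is high in the 72 hpf tornaria and again in Agassiz, and TCONS_00011707 stays between 216 and 365 TPM.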

How the data were processed

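Stranded poly(A) RNA-seq libraries of whole animals, per the labels' protocols, were deposited as 1 table each. The authors' deposited tables give estimated counts and TPM per transcript model, with the model length and effective length in bases per the file headers. The submitters' processing notes name kallisto and edgeR. No source used here names a version, a genome build or the origin of the models. TPM divides by effective length, which is small and uncertain for models shorter than a fragment.

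Members were ranked on lowest TPM. Members and lists were chosen with earlier results of these data known. Estimated counts were rounded and tested with edgeR 4.0.16 in R 4.3.3: filterByExpr by stage (30661 models kept), TMM factors (0.604 to 1.34), trended dispersion, 16 stage coefficients over all 31 libraries with 15 residual degrees of freedom, and Benjamini-Hochberg adjustment over all models tested. Stages with 1 library borrow the spread of the others. A period's mean weights its stages equally. CPM in the text are TMM-scaled, and those of the alternative rule are not. Tables were made with pandas 2.3.3. The fit was tested on simulated data.

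Named models were the 5 with the highest floor, those at the boundary, up to 2 rises and 2 falls per contrast among called members whose groups did not overlap, the steadiest and most variable, the shortest and longest, and the one with the largest share in 1 library. Those of the transitions, the other small groups of calls, the egg's highest and the adult were added after values were seen. Alternatives covered scaling, DESeq2 1.42.0, filters, thresholds, a replicate block, left-out libraries and other rules for the members. Scaling on library totals alone was added after seeing the data.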

Additional observations from a re-analysis of the deposited data

How the results depend on the processing

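Values are the percentage of members called unless named otherwise. Of 135 values for 9 percentages under alternatives other than leaving out a library, 117 kept their direction and were within 1.5 times. With the adjusted p alone they were, against all models tested under the same setting, 49.0% against 37.4% for early blastula over 16-32 cell, 72.0% against 46.3% for gastrula over blastula, 90.5% against 69.7% for larva over gastrula, 57.0% against 46.7% for late over early larva, 44.0% against 16.0% for egg to 16-32 cell, 59.5% against 21.6% for 72 hpf tornaria to Heider and 29.0% against 20.8% for Spengel to Agassiz. With members chosen by lowest CPM the balance turned for early blastula over 16-32 cell (24.0%, 15 up and 33 down) and egg to 16-32 cell (31.5%, 45 up and 18 down), and late over early larva gave 7.0%. On library totals without TMM factors it turned for gastrula over blastula (20.5%, all models 29.9%) and egg to 16-32 cell (19.5%, all models 12.9%), and 72 hpf tornaria to Heider gave 14.5% (all models 14.6%). With only the libraries compared the last gave 12.5% (all models 6.70%). With models of at least 500 bases gastrula over blastula turned (35.0%, 36 up and 34 down) and transforming larva over Agassiz gave 0.5%, and with 100 models it gave 2.0%. Causes were not tested. The share of TPM in gastrula and larval libraries was 11.9% and 8.23% by lowest CPM, 15.9% and 12.8% with models of at least 500 bases, 17.7% and 11.2% with 100 models, 33.7% and 24.98% with 400 models, and 10.3% and 6.92% of estimated counts, each lower in larvae. Median length was 3935 bases by lowest CPM and 896.5 with models of at least 500 bases. Leaving out 1 library at a time gave 10.5% to 16.0% for early blastula over 16-32 cell, 23.0% to 25% for gastrula over blastula, 43.5% to 47.5% for larva over gastrula, 4.0% to 7.5% for late over early larva, 0.5% to 1.0% for transforming larva over Agassiz, 23.5% to 27.0% for egg to 16-32 cell, 19.5% to 32.5% for 72 hpf tornaria to Heider and 7.5% to 10.5% for Spengel to Agassiz. Choosing the members again without each library kept 194 to 200 of them. Labels do not say that a replicate number marks a shared batch. Deviations of same-numbered libraries nevertheless correlated at 0.353 to 0.552 in all 10 pairs among late blastula, early gastrula, mid gastrula before mesoderm migration, late gastrula and 72 hpf tornaria, for replicates 1 and 2, and at -0.201 to 0.143 in the other 56 pairs of stages. This is a hint from the data that numbers pair libraries in those 5 stages, and 19 of 28 libraries correlated best with their own number. With the replicate block transforming larva over Agassiz gave 0.5%, larva over gastrula 46.0%, and the other percentages stayed within 1.5 times. Among the correlated stages it called 4 members in place of 5 from late blastula to early gastrula, 5 as before from early to mid gastrula, and 3 in place of 2 from late gastrula to 72 hpf tornaria. Single libraries for egg, transforming larva and adult, and members with few counts, limit precision.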
